A study of Oryctolagus cuniculus with 20 samples.

Results

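The 31 genes described here code for structural proteins of the extracellular matrix, for enzymes and inhibitors of matrix turnover, and for integrins, the receptors through which cells hold the matrix. They were drawn from 23669 genes counted in rabbit tricuspid valves. A gene was taken by its name (collagen chains, laminins, fibulins, thrombospondins, proteoglycans, ADAM, MMP and TIMP family members, integrins) if it stood in the study's list of genes called against non-treated valves and its identifier matched a row of the counts. COL1A2, COL3A1, FBN1, FBLN7 and MMP2 were left out by name. The genes were thus chosen by measured differences between treated and non-treated valves of this same series, so every value given here against the non-treated valves is a description of how each gene behaved and carries no test.

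Each group held 5 tricuspid valves, 20 in all, from female New Zealand white rabbits that were 8 weeks old when treatment began and were drawn from 8 rabbits per group. For 16 weeks the animals drank water alone (non-treated) or water with serotonin at 80 mg/kg/day, pergolide at 0.5 mg/kg/day or dexfenfluramine at 20 mg/kg/day. The last dose is that of the sample labels and the study's methods, while its results text gives a lower one. Pergolide is a dopamine agonist formerly used in Parkinson's disease and dexfenfluramine an appetite suppressant, and both were tied to valve disease in patients. Total RNA of the whole flash-frozen valve was sequenced after ribosomal RNA depletion, so every value is an average over the cells the explant held, and fewer cells of a type and less RNA per cell cannot be told apart.

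A valve leaflet is a layered sheet: dense collagen in the fibrosa, proteoglycan-rich loose tissue in the spongiosa and elastic fibres toward the inflow side. Valvular interstitial cells lay down these layers and keep turning them over, with metalloproteinases and ADAMTS enzymes cutting matrix proteins and TIMPs holding the enzymes in check. Basement membranes made of collagen IV and laminin underlie the endothelium that covers the leaflet and also wrap muscle and nerve fibres. Serotonin acts on interstitial cells through receptors that are known to raise collagen and glycosaminoglycan production.

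The valves held 3247091 to 5921025 counted reads each, of which a single gene took 20.3% to 48.1%. That share was 28.5% to 48.1% in non-treated, 29.6% to 39.4% in serotonin, 31.2% to 35.7% in pergolide and 20.3% to 34.3% in dexfenfluramine valves. Levels are given as CPM, a gene's counts scaled to a library of the same fixed size for every valve, with each library size first adjusted by TMM, an edgeR normalization that sets aside genes with extreme ratios. Levels are compared between valves for 1 gene and not between genes, because gene length was not taken into account. Of the 31 genes, 30 passed the low-count filter, and COL17A1 did not. Within a group, the coefficient of variation of the 30 genes had a median of 21.0% in non-treated, 18.8% in serotonin, 17.7% in pergolide and 24.7% in dexfenfluramine valves.

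The explants held heart muscle in unequal amounts of RNA. Of 16 cardiomyocyte markers 10 could be matched to an identifier, and none of the 10 was at 0 in any valve. Their summed level was 49608 to 152164 CPM in non-treated valves, with a median of 107309. It was 53636 to 104706 CPM in serotonin valves (median 63953) and 48123 to 92908 CPM in pergolide valves (median 82537). Dexfenfluramine valves ran from 12493 to 71649 CPM, with a median of 60657. TTN and MYH7 made up most of the sum, with means of 74730 and 22512 CPM in non-treated valves, and single markers differed in their pattern over the groups. Means of TNNT2 were 3099, 2958, 643 and 449 CPM in non-treated, serotonin, pergolide and dexfenfluramine valves. Those of ACTC1 were 1724, 1383, 1717 and 1071 CPM. Dexfenfluramine valve 3 and non-treated valve 3 had the lowest sum of their groups, 12493 and 49608 CPM, and counts below are also given without these valves. Of 12 valvular interstitial cell markers 6 were matched, of which COL1A1, COL1A2, COL3A1 and LUM are themselves matrix genes, and their sum was 3661 to 5706 CPM in non-treated, 4323 to 5846 in serotonin, 5460 to 7981 in pergolide and 5947 to 9155 in dexfenfluramine valves. The 2 that are not matrix genes were the intermediate filament gene VIM, with means of 2792, 2661, 2645 and 3607 CPM in these groups, and the growth factor receptor gene PDGFRB, with means of 38.97, 45.7, 65.5 and 66.3 CPM. Markers were matched through the study's list of called genes, so differences of their sums between groups are no independent evidence.

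Against non-treated valves, 13 of the 30 genes were called higher under pergolide, 15 under dexfenfluramine and 2 under serotonin, and 10 were called higher under both drugs. A gene is called here when its adjusted p-value over all 8683 genes tested was under 0.05 (edgeR's quasi-likelihood test with Benjamini-Hochberg adjustment). Pergolide valves had 14 of the 30 genes called, 13 higher and 1 lower, where 24.8% of all genes tested were called. In dexfenfluramine valves 18 were called, 15 higher and 3 lower, with 28.9% of all genes called. Only COL14A1 and ADAMTS1 were called for serotonin, both higher, with 1.19% of all genes called. Because the list itself came from these contrasts, nothing is read from the distance between the counts and those shares.

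The median log2 fold change of the 30 genes was 0.15 for serotonin, 0.39 for pergolide and 0.48 for dexfenfluramine. Over all genes tested it was 0.01, 0.02 and 0.03. In the direction of the fold change, called or not, 20 genes were above 0 for serotonin, 26 for pergolide and 24 for dexfenfluramine, where 52.5%, 52% and 52.8% of all genes tested were above 0. Called higher for both drugs were 10 genes: ADAM15, COL14A1, COL1A1, COL4A1, COL4A2, COL5A2, FBLN2, ITGA11, LAMA1 and TIMP1, where 8.99% of all genes tested were called higher for both. ADAMTS12, ADAMTSL1 and LUM were called higher for pergolide and not for dexfenfluramine, and COL4A6, COL6A6, LAMB2, MMP19 and THBS3 the other way round, which does not show that the drugs differed for them. ITGB8 was called lower for both drugs, and ADAMTS1 and ITGB1BP2 were called lower for dexfenfluramine. Of the 30 genes, 9 were called in none of the 3 comparisons. With non-treated valve 3 and dexfenfluramine valve 3 left out together, an alternative chosen after the data were seen, the counts called were 6 for serotonin, 16 for pergolide and 19 for dexfenfluramine, with 5.53%, 28.4% and 28.3% of all genes called. When the surrogate variables of svaseq, a tool the study also used to estimate unwanted variation, entered a limma-voom fit, they were 0, 4 and 3, with 1.23%, 13.3% and 11.4% of all genes called, where limma-voom without them gave 2, 12 and 15 with 1.31%, 24% and 27.6%. The serotonin count was also 0 without non-treated valve 2, 4 or 5 or serotonin valve 1, 2 or 4, beside 0% to 0.239% of all genes, and the dexfenfluramine count was 11 (36.7%) without dexfenfluramine valve 2, beside 23.5% of all genes.

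**Figure D1:**
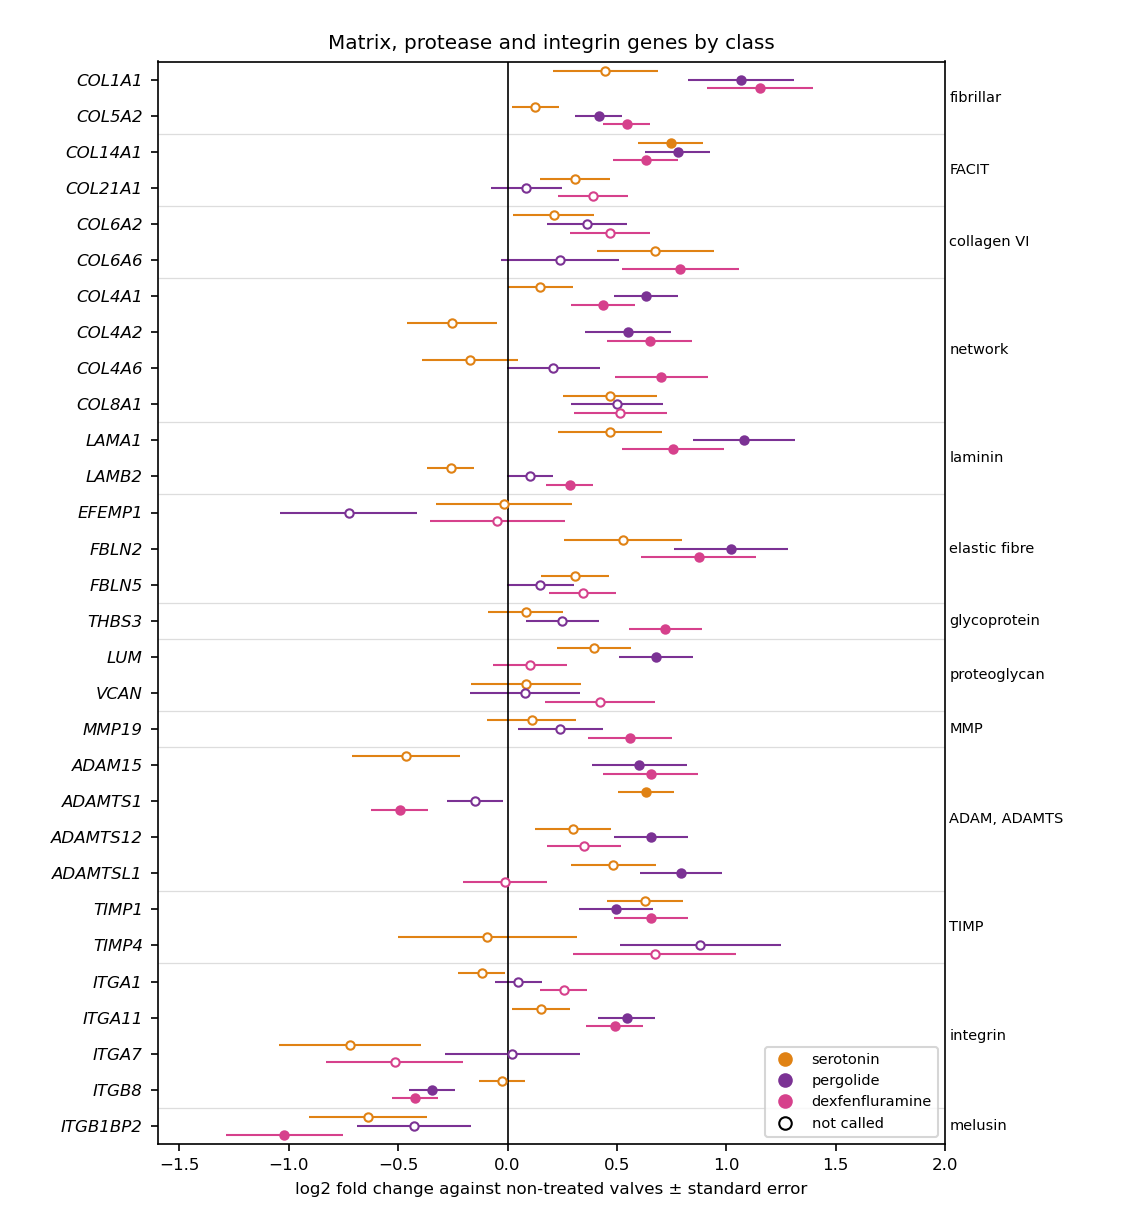
Log2 fold change against non-treated valves (horizontal axis) with its standard error, for the 30 tested genes grouped by class, with serotonin in orange, pergolide in purple and dexfenfluramine in pink. Filled points were called and open points were not: COL1A1, LAMA1 and FBLN2 lie furthest to the right, and ITGB1BP2 under dexfenfluramine furthest to the left at -1.02.

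Type I and type V collagen chains were higher under both drugs. COL1A1 (ENSOCUG00000012881), the α1 chain of the fibril collagen that makes up most of the fibrosa, read 84.8, 86.98, 117, 146 and 87.2 CPM in non-treated valves 1 to 5, the order used throughout. Serotonin valves read 165, 130.4, 140.3, 182 and 94.9 CPM, pergolide valves 143, 145, 293, 216 and 299 CPM and dexfenfluramine valves 231, 321, 278, 174 and 159.7 CPM. All dexfenfluramine valves lay above every non-treated valve, while pergolide valves 1 and 2 and serotonin valves 2, 3 and 5 fell within the non-treated range. The log2 fold change was 0.45 ± 0.24 (SE) for serotonin, 1.07 ± 0.24 for pergolide and 1.15 ± 0.24 for dexfenfluramine, the last being 2.22-fold, and the drug values were called. In limma-voom the drug values were 1.02 and 1.13 without surrogate variables, and 0.38 and 0.36 with them, where they were not called.

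COL5A2 (ENSOCUG00000015020) encodes a chain of type V collagen, which helps to start type I fibrils and sets their width. It read 367, 357, 481, 364 and 359 CPM in non-treated and 449, 369, 390.4, 424 and 475 CPM in serotonin valves. Pergolide valves read 479.6, 505, 500.04, 487 and 604 CPM and dexfenfluramine valves 539, 529.9, 686, 499.9 and 561 CPM. Apart from non-treated valve 3, every non-treated valve lay below every drug-treated valve, and the dexfenfluramine valves cleared that valve as well. The spread within groups was small, and the log2 fold changes of 0.42 ± 0.11 for pergolide and 0.55 ± 0.11 for dexfenfluramine were both called, against 0.13 ± 0.11 for serotonin.

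COL14A1 (ENSOCUG00000015234) was the only one of the genes called under all 3 treatments. It belongs to the fibril-associated collagens with interrupted triple helices (FACIT), which coat fibrils and link them. Its level was 516, 598, 644, 597 and 702 CPM in non-treated, 899, 1008, 926, 1264 and 1034 CPM in serotonin and 971, 938, 1073, 1043 and 1222 CPM in pergolide valves, and 819.7, 1255, 1062, 976 and 625 CPM in dexfenfluramine valves. No serotonin or pergolide valve came down to the non-treated range, and of the dexfenfluramine valves only valve 5 did. In log2 terms, its fold changes were close to each other at 0.75 ± 0.15, 0.78 ± 0.15 and 0.63 ± 0.15. The serotonin call was lost without any one of non-treated valves 2, 4 and 5 or serotonin valves 1, 2 and 4 (0.66 to 0.80), where the range in brackets, here and below, is that of the log2 value over the 10 fits that each leave out 1 valve of the groups compared. The other FACIT collagen, COL21A1 (ENSOCUG00000012337), was not called, with log2 fold changes of 0.31 ± 0.16, 0.09 ± 0.16 and 0.39 ± 0.16.

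Collagen VI, whose chains form beaded filaments around cells, gave 1 call. COL6A6 (ENSOCUG00000002486) read 80.4, 115, 157, 57.95 and 71.8 CPM in non-treated and 113, 153, 153, 201 and 155 CPM in serotonin valves. It read 117, 70.7, 98.6, 133 and 153 CPM in pergolide and 88.2, 198, 223, 200.2 and 129 CPM in dexfenfluramine valves. All groups overlapped, and the valves of each group were spread widely. Fold changes on the log2 scale were 0.68 ± 0.27, 0.24 ± 0.27 and 0.79 ± 0.27, of which the dexfenfluramine value was called. The call was lost without any one of non-treated valves 1, 4 and 5 or dexfenfluramine valves 2, 3 and 4 (0.65 to 1.04). COL6A2 (ENSOCUG00000000409), the α2 chain, read 189, 147, 249, 149 and 162 CPM in non-treated, 243, 165, 271, 179 and 181 CPM in serotonin, 186, 223, 216, 236 and 294 CPM in pergolide and 207, 267, 352, 232 and 185 CPM in dexfenfluramine valves. Non-treated valve 3 and dexfenfluramine valve 3, each the valve with the least muscle signal of its group, were the highest of their groups. Its log2 fold changes of 0.21 ± 0.18, 0.36 ± 0.18 and 0.47 ± 0.18 were not called. Without non-treated valve 3 the drug values were 0.51 and 0.62, and both were called.

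COL4A1 and COL4A2, chains of the main basement membrane collagen, were called higher under both drugs and not under serotonin. COL4A2 (ENSOCUG00000013276), the α2 chain, read 20.9, 17.1, 14.9, 25.9 and 20.9 CPM in non-treated and 19.6, 18.04, 17.2, 13.9 and 14.04 CPM in serotonin valves. Its level was 25.5, 20.7, 36.7, 33.4 and 29.00 CPM in pergolide and 39.8, 39.3, 19.3, 27.6 and 29.7 CPM in dexfenfluramine valves. Every pergolide valve lay above every serotonin valve, and dexfenfluramine valve 3 was the lowest of its group. On the log2 scale its fold changes were 0.55 ± 0.19 and 0.65 ± 0.19 for the drugs, both called, and -0.25 ± 0.21 for serotonin. The pergolide call was lost without any one of non-treated valves 1, 2, 3 and 5 or pergolide valves 3, 4 and 5 (0.45 to 0.65), and the dexfenfluramine call without dexfenfluramine valve 2 (0.55 to 0.78). COL4A1 (ENSOCUG00000013232), the chain that pairs with COL4A2 in the same trimer, read 72.9 to 80.6 CPM in non-treated valves and 104 to 134 CPM in pergolide valves, with no overlap. Dexfenfluramine valves ran from 64.3 CPM in valve 3 to 127 CPM in valve 5, and serotonin valves from 71.6 to 111 CPM. The COL4A1 log2 fold changes were 0.15 ± 0.15, 0.63 ± 0.15 and 0.44 ± 0.15, and the drug values were called. The dexfenfluramine call was lost without any one of non-treated valves 1, 2 and 5 or dexfenfluramine valves 1, 2 and 5 (0.34 to 0.56).

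COL4A6 (ENSOCUG00000010845), a chain of another collagen IV network, was called for dexfenfluramine at 0.70 ± 0.21, with 0.21 ± 0.21 for pergolide and -0.17 ± 0.22 for serotonin. The call was lost without either of non-treated valves 1 and 5 (0.56 to 0.86). In limma-voom the dexfenfluramine value of COL4A6 was 0.74 without surrogate variables and 0.08 with them, where it was not called. Its level was 39.4 to 61.2 CPM in dexfenfluramine against 20.02 to 46.2 CPM in non-treated valves. COL8A1 (ENSOCUG00000024465), a short-chain collagen that forms hexagonal networks under endothelium, read 55.9, 82.6, 117, 57.95 and 81.7 CPM in non-treated and 113, 153, 87.4, 105 and 93.3 CPM in serotonin valves. Pergolide valves read 123, 102, 84.7, 126 and 128 CPM and dexfenfluramine valves 76.4, 103, 152, 92.1 and 145 CPM. The means of the 3 treated groups were within a few CPM of each other, and each group overlapped the non-treated valves. Its log2 fold changes of 0.47 ± 0.21, 0.50 ± 0.21 and 0.52 ± 0.21 were not called.

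Both laminin chains, which join with collagen IV in basement membranes, were called in at least 1 comparison. LAMA1 (ENSOCUG00000009424), a laminin α chain best known from embryonic basement membranes, read 41.8, 43.1, 59.2, 35.01 and 33.4 CPM in non-treated and 36.3, 61.4, 62.2, 91.2 and 44.4 CPM in serotonin valves. It read 77.2, 95.3, 80.9, 96.9 and 101 CPM in pergolide and 40.2, 88.2, 103, 61.5 and 67.8 CPM in dexfenfluramine valves. Every pergolide valve was above every non-treated valve, and dexfenfluramine valve 1 lay inside the non-treated range. Log2 fold changes for this gene were 0.47 ± 0.24, 1.08 ± 0.23 and 0.76 ± 0.23, and the pergolide value, 2.12-fold, was called under every alternative tried. The dexfenfluramine call of LAMA1 was lost without any one of non-treated valves 4 and 5 or dexfenfluramine valves 2 and 3 (0.60 to 0.92). LAMB2 (ENSOCUG00000005101), a β chain abundant in muscle and vessel basement membranes, read 237, 206, 184, 199 and 217 CPM in non-treated and 183, 149, 209, 167 and 163 CPM in serotonin valves. Its level was 195, 206, 212, 253 and 254 CPM in pergolide and 276, 279, 264, 242 and 209.99 CPM in dexfenfluramine valves. The serotonin valves were mostly below and the dexfenfluramine valves mostly above the non-treated ones. In log2 terms, its fold changes were -0.26 ± 0.11, 0.10 ± 0.11 and 0.28 ± 0.11, and the dexfenfluramine call held under 2 of 12 alternatives and was lost without any one of non-treated valves 2, 3, 4 and 5 or dexfenfluramine valves 1, 2, 3 and 4 (0.24 to 0.35).

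**Figure D2:**
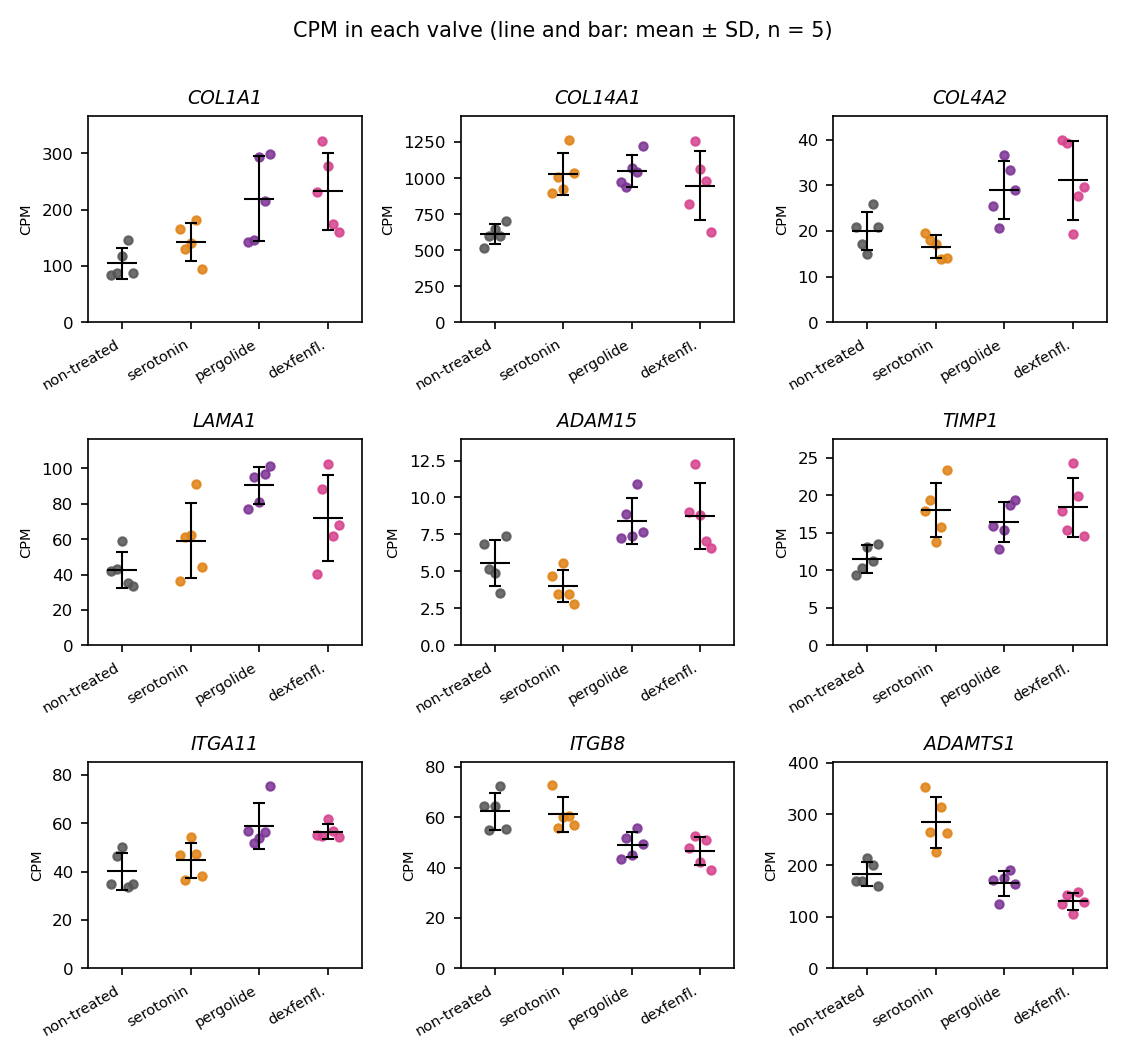
CPM of each valve (points) in the 4 groups of 5 valves, with the mean (line) and SD (bar), for 9 genes on linear axes that start at 0. COL14A1 and TIMP1 stood higher in all treated groups, though TIMP1 was not called for serotonin. COL1A1, COL4A2, LAMA1, ADAM15 and ITGA11 had their highest means in the drug groups, and ITGB8 its lowest. ADAMTS1 was highest with serotonin, at 226 to 353 CPM, and lowest with dexfenfluramine, at 106 to 149 CPM.

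Of the 3 fibulins, which bind elastic fibres and basement membranes, FBLN2 (ENSOCUG00000005900) was called under both drugs. It read 30.3, 18.2, 21.4, 20.00 and 14.96 CPM in non-treated, 32.6, 31.3, 30.7, 28.2 and 26.7 CPM in serotonin, 51.9, 48.5, 28.9, 37.6 and 43.6 CPM in pergolide and 66.3, 42.4, 16.6, 38.02 and 27.9 CPM in dexfenfluramine valves. Dexfenfluramine valve 3 was at the non-treated level and valve 1 far above the non-treated mean of 20.97 ± 5.75 CPM (SD, n = 5). Fold changes on the log2 scale were 0.53 ± 0.27, 1.02 ± 0.26 and 0.87 ± 0.26, and the dexfenfluramine value fell to 0.59 and was not called without its valve 1. EFEMP1 (ENSOCUG00000014657), fibulin-3, read 464, 579, 676, 123 and 551 CPM in non-treated and 541, 416, 495, 446 and 470.2 CPM in serotonin valves. Pergolide valves read 312, 230.5, 181, 442 and 281 CPM and dexfenfluramine valves 334, 429, 742, 429 and 386 CPM. Non-treated valve 4 was far below the other non-treated valves and set most of the spread of that group. On the log2 scale its fold changes of -0.02 ± 0.31, -0.73 ± 0.31 and -0.05 ± 0.31 were not called, and without non-treated valve 4 the pergolide value was -0.98 and called. FBLN5 (ENSOCUG00000013175), needed to assemble elastic fibres, was not called, with 0.31 ± 0.16, 0.15 ± 0.15 and 0.34 ± 0.15.

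THBS3 (ENSOCUG00000010032), a pentameric thrombospondin of connective tissue, was called for dexfenfluramine. It read 40.4, 53.1, 38.8, 30.6 and 48.6 CPM in non-treated, 48.2, 45.3, 49.97, 38.9 and 41.9 CPM in serotonin and 35.8, 44.3, 46.99, 63.1 and 61.4 CPM in pergolide valves. All dexfenfluramine valves, at 64.3, 71.00, 94.5, 63.9 and 55.3 CPM, lay above all non-treated and all serotonin valves. Its log2 fold changes were 0.08 ± 0.17, 0.25 ± 0.17 and 0.72 ± 0.17. In limma-voom the dexfenfluramine value was 0.72 without surrogate variables and 0.43 with them, where it was not called.

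The proteoglycans gave 1 call, for pergolide. LUM (ENSOCUG00000005592), lumican, a small leucine-rich proteoglycan that binds collagen fibrils, read 134, 144, 153, 198 and 133 CPM in non-treated and 135, 228, 189.9, 282 and 169 CPM in serotonin valves. It read 235, 256, 198, 206 and 325 CPM in pergolide and 161, 192, 167, 158 and 139.9 CPM in dexfenfluramine valves. Of the pergolide valves only valve 3 was as low as the highest non-treated valve, and the dexfenfluramine valves were at the non-treated level. Its log2 fold changes were 0.40 ± 0.17, 0.68 ± 0.17 and 0.10 ± 0.17. VCAN (ENSOCUG00000002613), versican, the large chondroitin sulfate proteoglycan of the spongiosa, read 2666, 2908, 3033, 1210.5 and 2596 CPM in non-treated and 2634, 1866, 3470.4, 2109 and 3079 CPM in serotonin valves. Pergolide valves read 2111, 2315, 2641, 3548 and 2511 CPM and dexfenfluramine valves 3024, 2638, 5735, 2675 and 2576 CPM. Dexfenfluramine valve 3 stood alone at the top and non-treated valve 4 alone at the bottom, with the rest intermixed. Log2 fold changes for this gene of 0.08 ± 0.25, 0.08 ± 0.25 and 0.42 ± 0.25 were not called, and without dexfenfluramine valve 3 the last was 0.14.

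Among the proteases, the level of ADAMTS1 went in opposite directions under serotonin and dexfenfluramine. ADAMTS1 (ENSOCUG00000016362) is a secreted protease that cleaves versican and aggrecan. It read 170.3, 170.2, 215, 200.03 and 161 CPM in non-treated, 353, 266, 226, 314 and 263 CPM in serotonin, 171, 125, 176, 191 and 163 CPM in pergolide and 124, 143, 106, 149 and 129 CPM in dexfenfluramine valves. Every serotonin valve lay above and every dexfenfluramine valve below the non-treated range, and the pergolide valves ran through it. The log2 fold change was 0.63 ± 0.13 for serotonin and -0.49 ± 0.13 for dexfenfluramine, both called, and -0.15 ± 0.13 for pergolide. The dexfenfluramine call held under every alternative tried, and the serotonin call was lost without any one of non-treated valves 2, 4 and 5 or serotonin valves 1, 2 and 4 (0.54 to 0.71).

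ADAM15 (ENSOCUG00000007070), a membrane-bound disintegrin and metalloproteinase that binds integrins, rested on 10 to 71 reads per valve. It read 6.85, 5.15, 4.92, 3.53 and 7.36 CPM in non-treated, 4.66, 3.48, 5.55, 3.49 and 2.81 CPM in serotonin, 7.28, 8.88, 7.38, 10.9 and 7.65 CPM in pergolide and 9.04, 12.2, 8.82, 7.08 and 6.57 CPM in dexfenfluramine valves. The drug-treated valves were all above the serotonin valves but shared a range with the highest non-treated valves. The drug values of 0.60 ± 0.22 and 0.65 ± 0.22 were called and the serotonin value of -0.47 ± 0.25 was not, and the pergolide call held under 4 of 12 alternatives. The pergolide call was lost without any one of non-treated valves 1, 2, 3 and 4 or pergolide valves 1, 2, 3, 4 and 5 (0.47 to 0.72), and the dexfenfluramine call without any one of non-treated valves 2, 3 and 4 or dexfenfluramine valve 2 (0.50 to 0.78). ADAMTS12 (ENSOCUG00000006357), a cartilage matrix protease, was called for pergolide at 0.66 ± 0.17, with pergolide valves at 30.8 to 45.01 CPM above non-treated valves at 15.4 to 29.7 CPM. Its values were 0.30 ± 0.17 for serotonin and 0.35 ± 0.17 for dexfenfluramine. MMP19 (ENSOCUG00000005109), the only matrix metalloproteinase among the 31 genes, read 11.9, 10.8, 9.48, 8.53 and 8.97 CPM in non-treated and 8.62, 9.81, 12.6, 11.5 and 10.95 CPM in serotonin valves. It read 8.05, 12.5, 12.4, 13.9 and 11.6 CPM in pergolide and 9.47, 17.1, 20.7, 14.4 and 11.2 CPM in dexfenfluramine valves. Dexfenfluramine valves 2, 3 and 4 were above all non-treated valves and valves 1 and 5 were among them. Its log2 fold changes were 0.11 ± 0.20, 0.24 ± 0.20 and 0.56 ± 0.19, and the last was called. This call was lost without any one of non-treated valves 3, 4 and 5 or dexfenfluramine valves 2, 3 and 4 (0.40 to 0.68).

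ADAMTSL1 (ENSOCUG00000004895), an ADAMTS-like glycoprotein that lacks the protease domain, is described because its drug groups were apart, a choice made after its values were seen. It read 15.2, 17.1, 21.9, 24.4 and 16.3 CPM in non-treated and 23.99, 32.6, 22.5, 18.5 and 36.2 CPM in serotonin valves. Pergolide valves read 40.4, 32.6, 24.02, 38.9 and 29.4 CPM and dexfenfluramine valves 18.1, 18.96, 14.04, 19.9 and 23.4 CPM. The dexfenfluramine valves sat at the non-treated level and every pergolide valve above them. The pergolide value of 0.79 ± 0.19 was called under every alternative tried, while serotonin gave 0.48 ± 0.19 and dexfenfluramine -0.01 ± 0.19, neither called.

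The inhibitor TIMP1 (ENSOCUG00000010718) was called higher under both drugs. It read 9.38, 10.3, 13.2, 11.2 and 13.6 CPM in non-treated, 17.9, 19.3, 13.7, 15.8 and 23.3 CPM in serotonin, 15.9, 12.8, 15.4, 18.6 and 19.4 CPM in pergolide and 17.9, 15.3, 24.3, 19.9 and 14.6 CPM in dexfenfluramine valves. All serotonin and dexfenfluramine valves lay above the non-treated range, and pergolide valve 2 lay inside it. In log2 terms, its fold changes were 0.63 ± 0.17, 0.50 ± 0.17 and 0.66 ± 0.17, and the serotonin value was not called although its groups did not overlap. The pergolide call was lost without any one of non-treated valves 1, 2 and 4 or pergolide valves 1, 4 and 5 (0.43 to 0.56). TIMP4 (ENSOCUG00000015952), an inhibitor best known from heart, rested on 5 to 71 reads per valve. It read 1.80, 3.25, 10.4, 5.29 and 3.68 CPM in non-treated, 8.39, 1.90, 4.97, 4.83 and 3.65 CPM in serotonin, 8.24, 12.1, 8.43, 10.6 and 8.36 CPM in pergolide and 13.6, 10.9, 4.68, 5.96 and 6.57 CPM in dexfenfluramine valves. Non-treated valve 3 was inside the pergolide range and the other non-treated valves below it. Fold changes on the log2 scale of -0.09 ± 0.41, 0.88 ± 0.37 and 0.67 ± 0.37 were not called, and with surrogate variables the drug values had the other sign, at -0.42 and -0.50.

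The integrin chains did not move as a group. ITGA11 (ENSOCUG00000017726), the α chain of a fibroblast receptor for fibrillar collagen, read 34.99, 46.6, 50.4, 33.5 and 34.97 CPM in non-treated and 47.1, 36.7, 54.4, 47.5 and 38.2 CPM in serotonin valves. It read 56.7, 51.8, 53.7, 56.3 and 75.6 CPM in pergolide and 55.3, 54.6, 61.9, 56.8 and 54.3 CPM in dexfenfluramine valves. Every drug-treated valve was above every non-treated valve. On the log2 scale its fold changes were 0.15 ± 0.13 for serotonin, not called, and 0.55 ± 0.13 and 0.49 ± 0.13 for the drugs, both called. In limma-voom the drug values of ITGA11 were 0.54 and 0.49 without surrogate variables. With them they were 0.33 and 0.20 and were not called.

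ITGA1 (ENSOCUG00000011357), the α chain of another collagen receptor, read 134, 122, 155, 142 and 129.8 CPM in non-treated and 138, 123, 133, 112 and 122 CPM in serotonin valves. Its level was 125, 149, 143, 153 and 135 CPM in pergolide and 149.7, 141, 213, 138 and 173 CPM in dexfenfluramine valves. The groups overlapped, with dexfenfluramine valve 3 the highest of all. None of its log2 fold changes, -0.12 ± 0.11, 0.05 ± 0.11 and 0.26 ± 0.11, was called.

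ITGB8 (ENSOCUG00000002197) was the integrin called lower under both drugs. Its chain pairs with αV and is known for activating latent TGF-β. It read 64.6, 54.7, 64.6, 72.4 and 55.5 CPM in non-treated, 72.9, 55.7, 59.9, 60.3 and 56.7 CPM in serotonin, 43.5, 51.8, 44.9, 55.8 and 49.3 CPM in pergolide and 47.8, 52.4, 42.3, 50.9 and 39.1 CPM in dexfenfluramine valves. All dexfenfluramine valves were below all non-treated valves, and of the pergolide valves only valve 4 reached into their range. Its log2 fold changes were -0.03 ± 0.11, -0.34 ± 0.10 and -0.42 ± 0.10, the last called under every alternative tried. The pergolide call was lost without either non-treated valve 4 or pergolide valve 1 (-0.40 to -0.30).

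The genes tied to muscle were ITGB1BP2 and ITGA7. ITGB1BP2 (ENSOCUG00000016643), melusin, is a protein of striated muscle that binds the tail of integrin β1 and is no integrin itself. It read 32.5, 26.01, 18.96, 45.01 and 26.7 CPM in non-treated, 16.5, 24.4, 13.2, 21.7 and 19.4 CPM in serotonin, 20.3, 26.5, 26.6, 18.6 and 17.97 CPM in pergolide and 20.01, 13.4, 5.40, 19.9 and 14.3 CPM in dexfenfluramine valves. The dexfenfluramine valves lay at or below the lowest non-treated valves, with valve 3 the lowest. In log2 terms, its fold changes were -0.64 ± 0.27, -0.43 ± 0.26 and -1.02 ± 0.27, and the last was called under every alternative tried, with the value -0.81 without dexfenfluramine valve 3. In limma-voom the dexfenfluramine value was -1.07 without surrogate variables and -0.58 with them. ITGA7 (ENSOCUG00000021735), a laminin receptor chain of muscle, read 16.2 to 47.1 CPM in non-treated, 15.6 to 22.8 CPM in serotonin, 25.4 to 39.1 CPM in pergolide and 5.94 to 33.98 CPM in dexfenfluramine valves. Its values of -0.72 ± 0.33, 0.02 ± 0.31 and -0.52 ± 0.31 were not called.

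COL17A1 (ENSOCUG00000003049), a transmembrane collagen of hemidesmosomes, was at the edge of detection. Non-treated valves held 5, 5, 15, 1 and 6 reads, serotonin valves 2, 3, 4, 4 and 4, pergolide valves 1, 0, 2, 3 and 2 and dexfenfluramine valves 3, 11, 14, 2 and 8. The groups overlapped in CPM, and no fold change is given because the gene did not pass the low-count filter.

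The levels of these genes within a group were set against the cardiomyocyte marker sum of the valves, which was mostly TTN and MYH7. For each of the 30 genes, the deviation of each valve from the mean of its group (log2) was compared with that of the summed cardiomyocyte markers, over the 20 valves. The spread within groups entered the calls by which the study listed these genes, and the markers came through the same list, so the correlations are a description and carry no test. The median r was -0.307, with 22 of the 30 below 0, and over all genes tested the median was -0.0191, with 51.6% below 0. In 17 of the 30 genes (56.7%) r was beyond 0.5 in either direction, as it was in 27.7% of all genes tested.

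The structural genes COL6A2 (r = -0.802, rho = -0.747), VCAN (r = -0.751, rho = -0.743) and EFEMP1 (r = -0.641, rho = -0.777) were high where the muscle markers were low, each with the same sign in all 4 groups. FBLN5, COL21A1, THBS3, TIMP1 and ITGA11 had r between -0.662 and -0.566. COL6A6 and COL8A1 had r of -0.563 and -0.536, and ITGA1 had -0.656 (rho = -0.371). On the positive side were ITGB1BP2 at r = 0.917 (rho = 0.887), ITGA7 at r = 0.857 (rho = 0.74), COL4A1 at 0.583 (rho = 0.421), FBLN2 at 0.523 (rho = 0.248) and COL4A2 at 0.501 (rho = 0.355). Dexfenfluramine valve 3 and non-treated valve 3 deviated most in the markers from the mean of their own group. Without them r was -0.673 for COL6A2, -0.616 for VCAN, -0.552 for EFEMP1, -0.42 for COL21A1, -0.432 for TIMP1, -0.385 for COL6A6, -0.243 for COL8A1, -0.222 for ITGA1, 0.807 for ITGB1BP2, 0.583 for ITGA7, 0.271 for COL4A1, 0.238 for FBLN2 and 0.0322 for COL4A2. For COL5A2 it went from -0.757 to -0.499 without them, and rho with all valves was -0.374. Of the genes above, COL5A2, TIMP1, ITGA11, COL4A1, FBLN2 and COL4A2 were called under both drugs, and THBS3, COL6A6 and ITGB1BP2 under dexfenfluramine. The other genes called under both drugs had smaller r, at -0.274 for COL1A1, -0.34 for COL14A1, -0.39 for LAMA1, -0.209 for ADAM15 and -0.00176 for ITGB8. The part of muscle content in the values against non-treated valves was not tested.

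**Figure D3:**
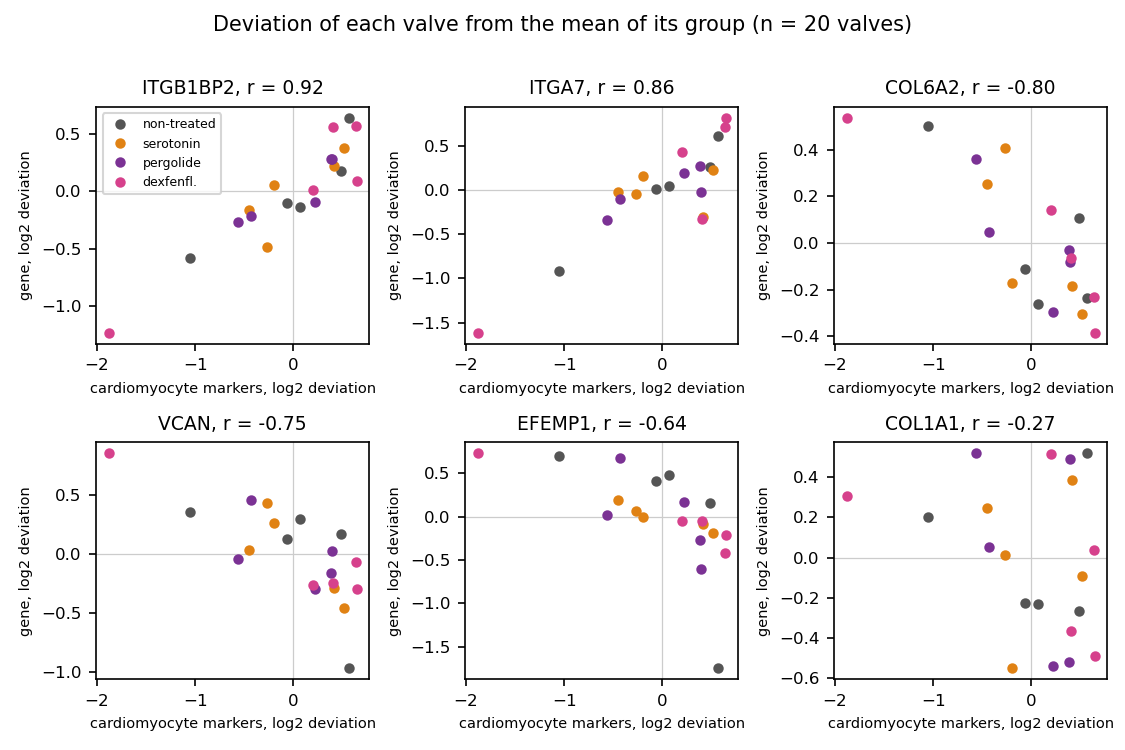
Deviation of each valve from its group mean on the log2 scale, for the summed cardiomyocyte markers (horizontal) and for 6 genes (vertical), with 20 valves coloured by group and Pearson's r above each panel. ITGB1BP2 and ITGA7 rise with the markers, COL6A2, VCAN and EFEMP1 fall, and COL1A1 is scattered, with the dexfenfluramine valve at the far left lowest in the markers.

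The values against non-treated valves were also computed in limma-voom with and without surrogate variables. The fit with svaseq held 4 surrogate variables, the first of which had r = -0.978 with the summed cardiomyocyte markers and 33.4% of its variance between groups. The others had r of -0.0385, -0.0186 and 0.0877 with the markers, and 52.7%, 30.6% and 5.68% of their variance between groups. The fit is thus no correction for muscle content alone. The median of the 30 genes in limma-voom was 0.39 for pergolide and 0.47 for dexfenfluramine without surrogate variables, and 0.24 and 0.12 with them. The sign was the same in both fits for 26 and 24 of the 30 genes. LAMA1 stood at 1.27 and FBLN2 at 0.84 for pergolide, against 1.09 and 1.04 without surrogate variables, and of these the call of LAMA1 was kept and that of FBLN2 was lost, whereas COL4A6 went from 0.19 to -0.43 and TIMP4 from 1.01 to -0.42. ITGB8 and ADAMTS1 moved further down for dexfenfluramine, from -0.42 to -0.65 and from -0.50 to -0.73. Other edgeR calls were lost with surrogate variables. For dexfenfluramine, COL14A1 went from 0.60 to 0.32, ADAM15 from 0.65 to 0.32, COL5A2 from 0.54 to 0.33 and COL6A6 from 0.79 to 0.52. TIMP1 went from 0.62 to 0.33 and LAMB2 from 0.28 to 0.08. For pergolide, ADAMTS12 went from 0.67 to 0.32 and COL4A2 from 0.56 to 0.23. Also lost were the pergolide calls of ADAM15, COL14A1, COL4A1, COL5A2, LUM and TIMP1, and the dexfenfluramine calls of COL4A1, COL4A2, FBLN2, LAMA1 and MMP19. In limma-voom without surrogate variables, COL4A2 and TIMP1 for pergolide and COL4A1, FBLN2 and MMP19 for dexfenfluramine were not called either. Of the 52 calls over all comparisons, 10 were kept with surrogate variables.

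**Figure D4:**
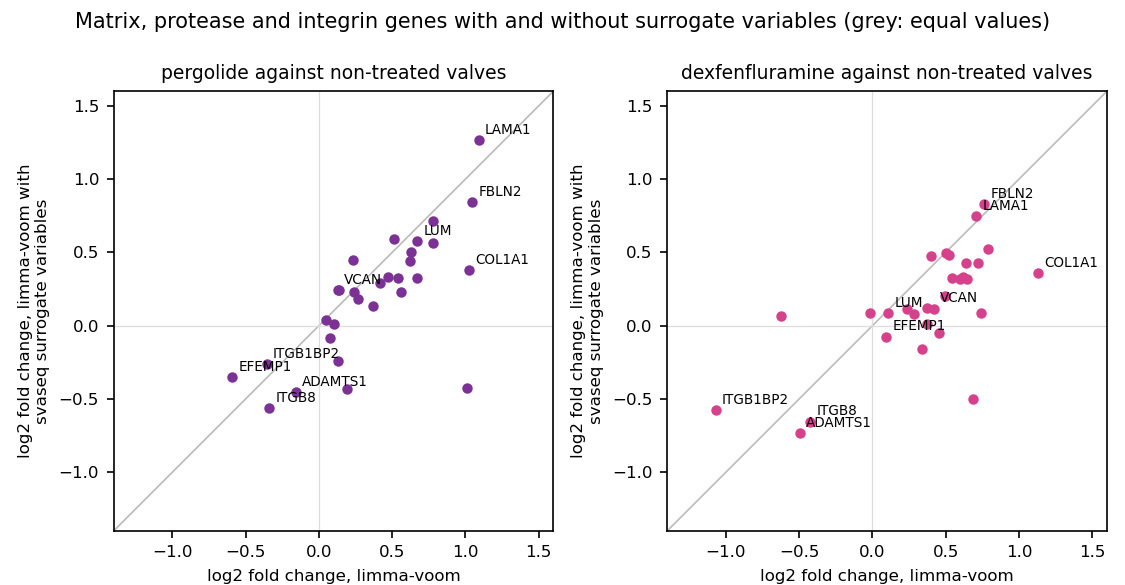
Log2 fold change of the 30 genes against non-treated valves from limma-voom without (horizontal) and with svaseq surrogate variables (vertical), with pergolide on the left and dexfenfluramine on the right and a grey line of equal values. Most points lie below the line, COL1A1 far below it at 0.38 and 0.36. For pergolide LAMA1 lies above the line and FBLN2 below it, and for dexfenfluramine both lie a little above it.

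Comparing the drugs with serotonin asks whether the treatments share their matrix changes. The choice of genes did not use this contrast, but the valves are those of the treated groups that it did use. For pergolide against serotonin 8 of the 30 genes were called, 6 higher and 2 lower (26.7%), with 27.5% of all genes called. For dexfenfluramine 10 were called, 8 higher and 2 lower (33.3%), with 30.3% of all genes called. In these fits of all valves the counts were near the share of all genes for both drugs. Without serotonin valve 2 or pergolide valve 3 the pergolide count was 5 (16.7%), beside 24.2% and 24.5% of all genes. The median differences were 0.25 and 0.27 (log2), and 0.03 over all genes in each.

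ADAMTS1 had the largest difference of the 30 genes for dexfenfluramine against serotonin, at -1.13 ± 0.13, and -0.78 ± 0.13 for pergolide, with no overlap of valves in either. Both ADAMTS1 differences were called under every alternative tried. ITGB8 was also lower under both drugs than under serotonin, at -0.32 ± 0.10 and -0.40 ± 0.11. The genes called higher under both drugs than under serotonin were ADAM15 (1.07 ± 0.23 and 1.12 ± 0.23), COL4A2 (0.81 ± 0.20 and 0.91 ± 0.20), LAMB2 (0.36 ± 0.11 and 0.54 ± 0.11) and COL5A2 (0.29 ± 0.11 and 0.42 ± 0.11). COL4A1 at 0.48 ± 0.15 and ITGA11 at 0.39 ± 0.13 were called for pergolide, and COL4A6 at 0.87 ± 0.21, COL1A1 at 0.70 ± 0.24, THBS3 at 0.64 ± 0.17 and ITGA1 at 0.37 ± 0.11 for dexfenfluramine. Among these, the calls for pergolide were lost for COL5A2 without any one of serotonin valves 1, 2, 3 and 4 or pergolide valves 1, 2, 3, 4 and 5 (0.23 to 0.34), for COL4A1 without any one of serotonin valves 4 and 5 or pergolide valve 3 (0.42 to 0.61), for ITGA11 without any one of serotonin valves 2 and 5 or pergolide valve 5 (0.29 to 0.47), for LAMB2 without serotonin valve 2 (0.30 to 0.44) and for ITGB8 without any one of serotonin valve 1 or pergolide valves 1 and 3 (-0.37 to -0.25). The dexfenfluramine call of COL1A1 was lost without any one of serotonin valves 2, 3 and 5 or dexfenfluramine valves 2 and 3 (0.56 to 0.81). The COL1A1 difference had the other sign with surrogate variables, at -0.14. COL14A1 differed from serotonin by 0.03 ± 0.15 for pergolide and -0.11 ± 0.15 for dexfenfluramine, and was not called.

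Between dexfenfluramine and pergolide, edgeR called none of the 30 genes and 0% of all genes tested. At an unadjusted p under 0.05 there were 7 of the 30 and 613 of the 8683 genes. DESeq2 called 4 genes in all and limma-voom none, and none of them was among the 30. The valves of LUM and of ADAMTSL1 did not overlap between the drugs, with differences of -0.58 ± 0.17 and -0.81 ± 0.18, neither called. The share of all genes tested without overlap was not computed, so nothing is read from this separation. Other differences, none called, were 0.68 ± 0.31 for EFEMP1, -0.59 ± 0.27 for ITGB1BP2, 0.55 ± 0.26 for COL6A6, 0.49 ± 0.21 for COL4A6 and 0.47 ± 0.16 for THBS3. For COL1A1 the difference was 0.08 ± 0.24, for COL4A2 0.10 ± 0.19 and for ADAM15 0.05 ± 0.20, and these values do not show that the drugs acted alike on them.

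**Figure D5:**
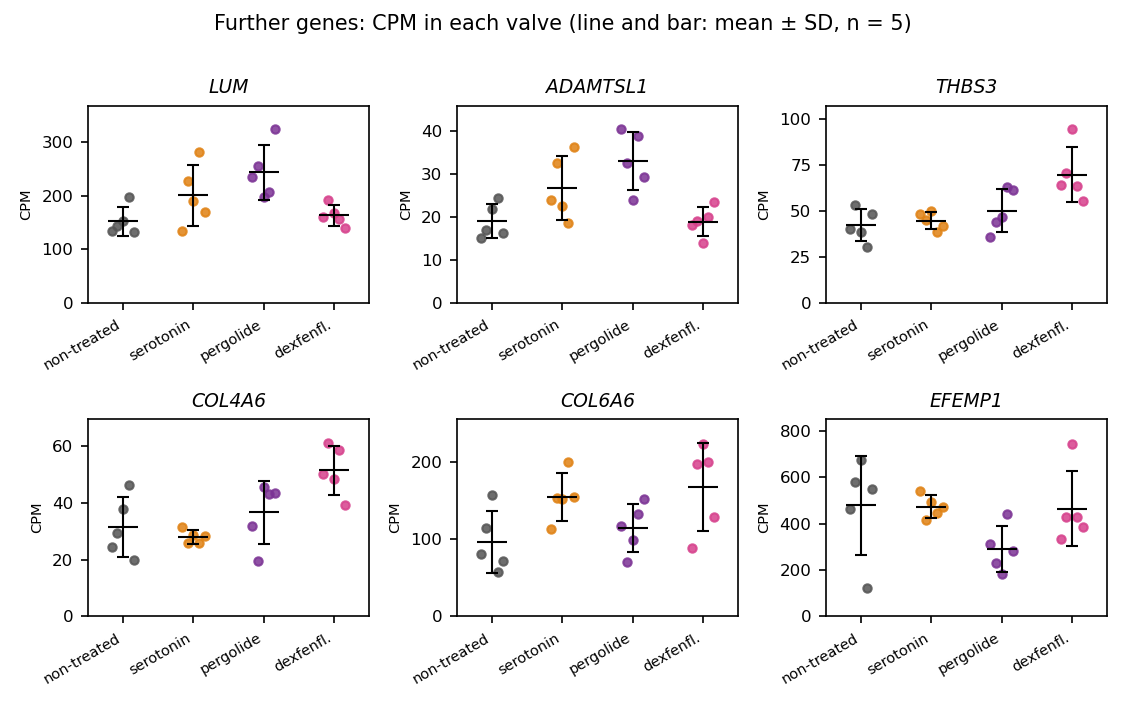
CPM of each valve (points) with mean (line) and SD (bar) in the 4 groups of 5 valves, for 6 genes with some of the larger differences between pergolide and dexfenfluramine, chosen after their values were seen. LUM and ADAMTSL1 show pergolide valves above all dexfenfluramine valves, at 198 to 325 against 140 to 192 CPM for LUM, and the other 4 overlap.

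Other matrix genes of the same families came from a list of 202 symbols, of which 45 could be matched through the study's own list of called genes, so their counts are again no independent evidence. Outside the genes above, 15 were tested: 3 were called for serotonin, 12 for pergolide and 13 for dexfenfluramine, all higher, beside 1.19%, 24.8% and 28.9% of all genes. Against serotonin 8 were called for pergolide (53.3%) and 7 for dexfenfluramine (46.7%), all higher, beside 27.5% and 30.3% of all genes. Between the drugs edgeR called none of the 15, with 1 at an unadjusted p under 0.05, beside 7.06% of all genes. Those called for serotonin were FBLN7, a fibulin, at 0.88 ± 0.19, MGP, the inhibitor of calcification matrix Gla protein, at 0.78 ± 0.17, and SVEP1, a large adhesion protein, at 0.64 ± 0.13. The 5 serotonin calls of the whole matrix list, which holds these genes, COL14A1 and ADAMTS1, fell to 0 without non-treated valve 2, 4 or 5 or serotonin valve 1 or 4, and to 1 without serotonin valve 2, beside 0% to 0.239% of all genes. The largest for pergolide were FBLN7 at 1.32 ± 0.18, the basement membrane linker NID1 at 1.24 ± 0.31 and the type III collagen gene COL3A1 at 1.00 ± 0.17. For dexfenfluramine they were HAPLN1, which links hyaluronan to proteoglycans, at 0.99 ± 0.31, COL1A2, the partner chain of COL1A1, at 0.96 ± 0.17, and COL3A1 at 0.95 ± 0.17.

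A further 9 symbols of the same naming rule had an identifier with the wrong number of zeros in the study's list, and matched the counts once it was written with 11 digits. They are kept apart from the 31 genes. None was called for serotonin, 2 were called for pergolide and 4 for dexfenfluramine, beside 1.19%, 24.8% and 28.9% of all genes. For serotonin 3 of the 9 had an unadjusted p under 0.05 in edgeR, beside 15.8% of all genes. SPARC, a collagen-binding glycoprotein, was called under both drugs at 0.50 ± 0.12 and 0.57 ± 0.12, COL15A1 for pergolide at 0.40 ± 0.13, and COL4A5, ADAMTSL4 and ITGB3 for dexfenfluramine at 0.62 ± 0.14, 0.63 ± 0.20 and 0.63 ± 0.24. COL4A4, DCN, ITGA5 and LOX were called in none of the comparisons with non-treated valves, LOX, the enzyme that cross-links collagen, at 0.52 ± 0.19, 0.44 ± 0.18 and 0.48 ± 0.18. Against serotonin 2 of the 9 (22.2%) were called for pergolide and 4 (44.4%) for dexfenfluramine, beside 27.5% and 30.3% of all genes: COL4A4, a chain of another collagen IV network, lower at -0.46 ± 0.17 and -0.59 ± 0.17, SPARC higher at 0.35 ± 0.12 and 0.42 ± 0.12, and COL4A5 and ITGB3 higher for dexfenfluramine at 0.57 ± 0.14 and 0.71 ± 0.24.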

How the data were processed

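The authors trimmed adapters from stranded, rRNA-depleted libraries of 20 tricuspid valves, aligned them to the rabbit oryCun2 genome with TopHat2 (version 2.1.1, per the submitters' processing notes) and counted reads per Ensembl gene with HTSeq. The strand setting of the counting is not given in the sources used here, so how reads were counted where genes overlap is not known. The deposited values are raw counts, 1 column per valve. The mapping of symbols to identifiers came from the study's list of called genes, of which only symbol and identifier were used. The genes and the lists were chosen with earlier results of these data known.

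Counts were analysed with edgeR 4.0.16 in R 4.3.3: genes were filtered with filterByExpr (8683 of 23669 remained), scaled by TMM, fitted for all 20 valves in 1 quasi-likelihood model of 4 groups, and adjusted by Benjamini-Hochberg over all tested genes, with a threshold of 0.05. Each valve came from its own rabbit. Log2 CPM used a prior count of 2. On simulated counts for the pergolide comparison, with 196 of 8570 genes changed 2-fold, 140 were called in the right direction and 10 unchanged genes were called. The simulation drew each gene independently, with no difference between valves that genes share and far fewer changed genes than were called here. Its counts therefore give no error rate for the calls of these data. The alternatives were DESeq2 1.42.0, limma-voom (limma 3.58.1) with and without svaseq (sva 3.50.0), other size factors and filters, fits of the compared groups alone, a threshold of 0.01, the replicate number as a block and each valve left out. Whether same-numbered valves deviate together was checked, and the closing section gives the result. Every gene of the rule was named, with values per valve for the gene of each class with the largest mean size of its 2 drug fold changes (log2), the one with the highest CPM and those called against the majority of their class. Marker lists were drawn up for 8 cell types and summed per valve for those with a matched marker. Figures were drawn with matplotlib 3.10.9.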

Additional observations from a re-analysis of the deposited data

Results flagged for a closer look

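In 9 of the 120 combinations of a gene and a group of 5 valves, 1 valve lay far from the others by Dixon's criterion (the gap to its nearest neighbour over the range of the group), which chance meets in about 1 group in 20. Dexfenfluramine valve 3, lowest in cardiomyocyte markers, stood far above its group for VCAN at 5735 CPM (next 3024) and for EFEMP1 at 742 CPM (next 429). Non-treated valve 3, lowest of its group in the same markers, stood far above it for COL5A2 at 481 CPM (next 367) and COL21A1 at 103 CPM (next 73.6). Non-treated valve 4, highest of its group in the markers, was far below the others for VCAN at 1210.5 CPM (next 2596) and above them for COL4A1 at 80.6 CPM (next 73.6). Pergolide valve 5 was high for COL5A2 at 604 CPM (next 505) and for ITGA11 at 75.6 CPM (next 56.7). Serotonin valve 1 was high for ITGB8 at 72.9 CPM (next 60.3). The part of muscle content in these values was not tested.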

How the results depend on the processing

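The 30 tested genes and the 44 tested genes of the wider matrix list were recounted under each alternative. In limma-voom with svaseq surrogate variables the counts of the 30 called were 0 for serotonin, 4 for pergolide and 3 for dexfenfluramine against non-treated valves, and 4 and 2 for pergolide and dexfenfluramine against serotonin, the last beside 17.3% and 15.9% of all genes. Limma-voom without them gave 2, 12, 15, 10 and 11, the last 2 beside 26.8% and 29.7% of all genes. In the matrix list the counts were 3, 13, 6, 9 and 7 with them, 5, 24, 25, 18 and 18 in limma-voom without them, and 5, 26, 30, 16 and 17 in edgeR. The surrogate variables had from 5.68% to 52.7% of their variance between groups. The cause of these changes was not tested. Only 1 of the 52 calls had the other sign under any alternative, COL1A1 for dexfenfluramine against serotonin with svaseq (-0.14), and 8 calls were kept under every alternative: ADAMTS1 in 3 comparisons, ITGB8 in 2, and ADAMTSL1, ITGB1BP2 and LAMA1 in 1 each. With svaseq set aside, 30 calls were kept under every alternative. Serotonin gave 0 of the 30 and 0 of the matrix list at a threshold of 0.01 and with only the compared groups in the fit, where 0% of all genes were called. In the full fit edgeR had 10 of the 30 and 15.8% of all genes at an unadjusted p under 0.05. The threshold of 0.01 left 9 of the 30 and 16 of the matrix list for dexfenfluramine, and 3 and 8 for pergolide against serotonin, beside 16.2% and 17% of all genes. The fit of pergolide and serotonin alone gave 13 of the 30, beside 29.6%. Without non-treated valve 3 and dexfenfluramine valve 3, chosen after seeing the data, serotonin had 6 of the 30 and 10 of the matrix list called, beside 5.53% of all genes. Other size factors moved the median of all genes by under 0.06 (log2).

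Same-numbered valves did not deviate together in every pair of any comparison (r from -0.342 to 0.492), and the numbers were taken as names. Against non-treated valves, 2 pairs were above 0.1 for serotonin and 2 for dexfenfluramine. In each, 2 treated valves correlated most with the non-treated valve of their own number. Dexfenfluramine against serotonin also had 2 pairs above 0.1, and the comparisons with pergolide had none. A partial pairing is thus not excluded. With the replicate number as a block, serotonin had 0 of the 30 and 0 of the matrix list called, pergolide 12 and dexfenfluramine 18 of the 30, and pergolide and dexfenfluramine 9 and 10 against serotonin, beside 0.0115%, 22.9%, 27.2%, 25.7% and 28.6% of all genes. Leaving out 1 valve in turn gave 0 to 3 of the 30 genes for serotonin, 11 to 15 for pergolide, 11 to 21 for dexfenfluramine, 5 to 9 and 9 to 12 for these drugs against serotonin, and 0 to 0 between the drugs, beside 0% to 2.93%, 20.2% to 26%, 23.1% to 32%, 23.7% to 25.2%, 25.2% to 28.8% and 0% of all genes. For the matrix list the ranges were 0 to 6, 21 to 26, 21 to 31, 11 to 17, 14 to 19 and 0 to 0. Few reads in some valves limit ADAM15, TIMP1, TIMP4, MMP19 and COL17A1.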

Other observations

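Markers of other cell types were matched through the study's list of called genes, so their levels are given as a description with no test. Of 9 adipocyte markers 4 were matched, and their sum was 24.1 to 75.6 CPM in non-treated, 32.0 to 149 CPM in serotonin, 62.3 to 193 CPM in pergolide and 3.78 to 109.6 CPM in dexfenfluramine valves, the lowest being dexfenfluramine valve 3, where the hormone gene LEP had no read. PECAM1 and EMCN, the 2 endothelial markers matched of 9, summed to 135 to 322 CPM in non-treated, 259 to 336 CPM in serotonin, 117 to 216 CPM in pergolide and 170.4 to 264 CPM in dexfenfluramine valves. The 3 smooth muscle markers matched of 7 summed to 243 to 644 CPM in non-treated, 294 to 478 CPM in serotonin, 363 to 447 CPM in pergolide and 119 to 490 CPM in dexfenfluramine valves, and all groups overlapped. DES, which striated muscle also expresses, made up most of that sum. The means of MYH11 were 46.5, 45.9, 31.1 and 17.2 CPM in these groups, and those of TAGLN 2.09, 1.92, 4.15 and 5.37 CPM. No marker of macrophages, erythroid cells or chondrocytes was matched to an identifier, and these cells were not analysed here. The part of these cell types in the values of the matrix genes was not tested.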
